A study of Homo sapiens with 18 samples.

Results

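The comparison set wild-type MMSET II against the Y1118A mutant of the same protein in KMS11, an established multiple myeloma cell line in which chromosomes 4 and 14 have exchanged arms (t(4;14)). MMSET (gene symbol NSD2) is a histone methyltransferase that marks lysine 36 of histone H3, and the translocation places it under immunoglobulin control. The submitters call the Y1118A mutant inactive and MMSET II wild type, so the comparison sets an active against an inactive form of the protein, each put back into the same cells. All probes of the deposited table with a detection p under 0.01 on at least 3 of these 6 arrays were members, 12022 of 48803 probes. Of these, 10368 had 1 gene symbol, 2 had several and 1652 had none, and together they covered 8288 genes. On all 6 arrays 10880 were detected.

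The 6 groups of the study hold 3 arrays each. In the repletion system, cells labelled as MMSET knock-outs were infected with a retrovirus that carried wild-type MMSET II, the mutant Y1118A, the mutant F1177A, which the labels call active, or DSRed alone as the empty vector control. In the other system, again in KMS11, an inducible hairpin against MMSET was induced with doxycycline (+DOX) or not (no DOX). The samples are described as triplicates, not as separate cultures. The p-values therefore reflect only how far arrays scatter within their group, pooled over all 6 groups, and that scatter may be technical. The median SD of a probe ran from 0.0799 in Y1118A to 0.2 in no DOX on the log2 scale. Whether the infected cells were a clone or a pool is likewise not stated. In bulk RNA, fewer cells expressing a gene cannot be told apart from less RNA per cell.

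The lysine 36 mark spreads over transcribed gene bodies, and MMSET is known in t(4;14) myeloma for raising its level across the genome and for shifting the expression of adhesion, cell cycle and signalling genes. Setting the wild-type protein against an inactive form addresses which expression differences go with its enzyme activity.

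Array brightness, taken as the 95th percentile of intensity, was 621.9 to 889.5 on the MMSET II arrays and 746.5 to 775 on the Y1118A arrays, against 241.5 to 1033 over all 18 arrays. Pearson's correlation across the member probes was 0.994 to 0.995 between arrays of MMSET II, 0.996 to 0.997 between arrays of Y1118A and 0.979 to 0.983 between the groups. The median SD of a probe was 0.11 in MMSET II and 0.0799 in Y1118A on the log2 scale. Of 9 plasma cell markers, 8 were detected on at least 1 of the 6 arrays, with CD38 on none. SDC1, the plasma cell surface proteoglycan, was detected on 0 of 3 MMSET II arrays and on 3 of 3 Y1118A arrays. None of the 3 B-cell markers on the array was detected, and of 8 markers of T, NK, myeloid and erythroid cells only the globin HBB was. Of 9 markers of fibroblasts, endothelium and epithelium, PDGFRB, PECAM1 and EPCAM were detected and the defining collagens COL1A1 and COL3A1, DCN, VWF, KRT8 and KRT18 were not. The summed intensity of these 9 was 221 to 309 with MMSET II and 110 to 121 with Y1118A. EPCAM alone read 193.8, 134.7 and 121.2 with MMSET II and 32.2, 30.7 and 31 with Y1118A. It was detected on 3 of 3 no DOX arrays as well, at a mean log2 level of 9.94. The part of these markers in the results was not tested.

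MMSET RNA itself did not pass the test. Of 4 NSD2 probes on the array, 1 was a member and was detected on all 18 arrays, and the other 3 were detected on none. The member probe read 5.42, 5.68 and 5.79 with MMSET II, against 5.55, 5.93 and 5.90 with Y1118A (log2 level), and these ranges overlapped. The log2 difference was -0.17 (SE 0.132, limma adjusted p = 0.425). Against DSRed (5.66, 5.68 and 5.63) this probe differed by -0.03 with MMSET II, 0.14 with Y1118A and 0.11 with F1177A, none of them called. It thus showed no added RNA with any construct. With doxycycline against without it, the probe differed by -0.70 (limma adjusted p = 0.000388). No source states whether the introduced construct contains the probe's target, and the labels of the repletion groups therefore cannot be checked with it.

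MMSET II cells carried far more RNA for the chemokine CCL3 and its near-identical copies than Y1118A cells, and far less for MARCKS, a membrane substrate of protein kinase C, and for the peptide hormone ADM. Of the gene lists, sterol synthesis had 18 of 35 members called higher and MYC and ribosome biogenesis 21 of 45, while the PI3K brake and FOXO-type quiescence list had 10 of 24 called lower. Of 12022 probes, 2250 were called changed at a limma adjusted p under 0.05, a share of 18.7%. Of these 1109 were higher with MMSET II (9.22%) and 1141 lower (9.49%). At least 2-fold changes numbered 194 (1.61%), 138 of them higher and 56 lower. The 3 arrays of the groups did not overlap for 5889 probes (49%). By unadjusted p under 0.05, 3737 probes passed. Under median scaling in place of quantile normalisation 548 probes were called, with 67% higher against 49.3% in the main setting, and without Y1118A replicate 1 there were 1486.

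**Figure D1:**
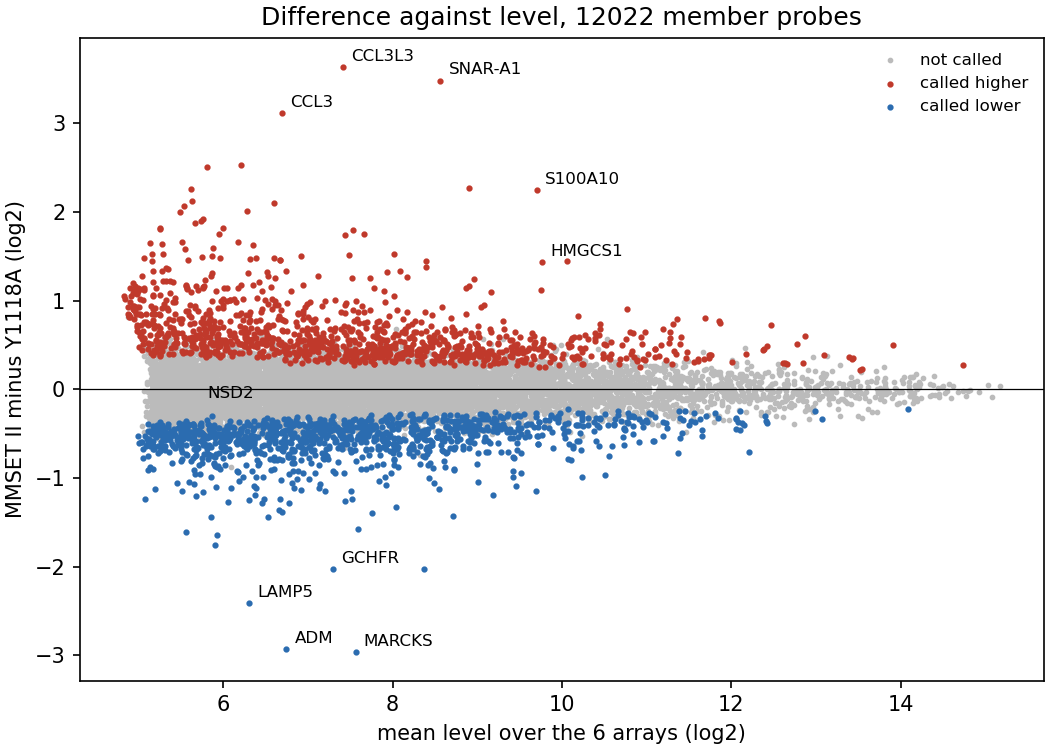
Mean level over the 6 arrays (x, log2) against the difference of MMSET II minus Y1118A (y, log2) for the 12022 member probes; called probes are red where higher and blue where lower, and the rest are grey. The chemokine genes and SNAR-A1 lie at the top, MARCKS and ADM at the bottom, and NSD2 lies near 0 at -0.17.

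A probe that entered the membership only because it was detected in 1 of the groups was thereby selected for a difference in detection, whether or not it was called. There were 216 probes detected on all 3 MMSET II arrays and no Y1118A array, of which 165 were called, and 100 the other way round, of which 67 were called. The 480 probes detected on exactly 3 of the 6 arrays had a median absolute difference of 0.426, and the 356 probes just outside the rule, detected on exactly 2, had one of 0.202.

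The largest rise was in CCL3L3, a copy of the macrophage chemokine gene CCL3, whose products recruit myeloid and lymphoid cells and act on osteoclasts. CCL3L3 read 9.18, 9.34 and 9.17 with MMSET II, against 5.46, 5.67 and 5.66 with Y1118A (log2 level), a difference of 3.63 (SE 0.148, limma adjusted p = 2.66e-12). CCL3 itself read 8.15, 8.25 and 8.34 with MMSET II, against 5.08, 5.28 and 5.04 with Y1118A, and was at least 8.07-fold higher. Such a bound is given where a group's mean lay below the lowest detected signal or no array of it detected the probe. CCL3L1 was detected on no Y1118A array and was at least 3.56-fold higher. The arrays of the groups lay far apart in each of these genes, whose choice required that the groups not overlap. A second CCL3L3 probe gave 2.53. These probes read copies of nearly the same RNA, so which copy gave the signal is uncertain. The RefSeq promoter windows of CCL3 and CCL3L3 (300 bases around the gene start, build GRCh38.p14, minus strand) are printed because probes of both showed large rises and their sequences are so alike; capitals mark bases not identical in the alignment of the pair, and 277 of 294 aligned bases are the same (94.2%). RefSeq lists 3 windows for CCL3, and the other 2 align with the CCL3L3 window over 10 and 21 bases only. The CCL3 window shown, the most alike, is chr17:36090094-36090393 and the CCL3L3 window is chr17:36196709-36197008.

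CCL3: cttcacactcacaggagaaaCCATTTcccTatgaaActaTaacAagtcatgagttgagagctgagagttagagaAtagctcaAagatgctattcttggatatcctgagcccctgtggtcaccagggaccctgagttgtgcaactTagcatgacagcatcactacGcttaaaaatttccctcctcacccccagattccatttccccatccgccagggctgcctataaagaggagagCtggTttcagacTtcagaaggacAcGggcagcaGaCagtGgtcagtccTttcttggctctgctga

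CCL3L3: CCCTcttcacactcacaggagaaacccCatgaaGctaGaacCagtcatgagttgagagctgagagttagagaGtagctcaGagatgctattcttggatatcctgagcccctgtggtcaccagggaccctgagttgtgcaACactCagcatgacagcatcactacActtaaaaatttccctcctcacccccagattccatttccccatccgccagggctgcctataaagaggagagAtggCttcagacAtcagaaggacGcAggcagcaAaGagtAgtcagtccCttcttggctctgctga

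S100A10, the partner of annexin A2 at the plasma membrane, read 10.82, 10.90 and 10.76 with MMSET II, against 8.47, 8.60 and 8.68 with Y1118A (log2 level), a difference of 2.24 (SE 0.187), with 2.27 at its other probe. SNAR-A1, a small noncoding RNA with near-identical copies, rose by 3.48 (SE 0.202). Several rises started below detection with Y1118A. SVIL, which links actin to membranes, was at least 2.55-fold higher and LARP6, which binds collagen mRNAs, at least 2.76-fold. RNF130, a ubiquitin ligase, was at least 2.4-fold higher and KBTBD11, a cullin adaptor, at least 2.81-fold. PRKCB, a protein kinase C, was at least 2.74-fold higher, and TGFA, a ligand of the epidermal growth factor receptor, at least 1.91-fold. GALNT18, an enzyme of mucin-type glycosylation, rose by 2.10 and IGFBP7, a binding protein of insulin-like growth factors, by 2.01. ALG1L1P, a pseudogene, was at least 2.6-fold higher, and CLYBL, a mitochondrial enzyme, at least 3.13-fold higher. The 15 largest rises had limma adjusted p-values of 2.66e-12 to 1.15e-05. Of these, CCL3L1, LARP6, SVIL, RNF130, KBTBD11, PRKCB, ALG1L1P and TGFA were detected on 3 MMSET II arrays and 0 Y1118A arrays. They passed the filter only through the group where they are high, so their p-values are no independent support.

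MARCKS read 6.01, 6.17 and 6.06 with MMSET II, against 9.10, 8.95 and 9.08 with Y1118A (log2 level), a difference of -2.96 (SE 0.0989, limma adjusted p = 1.26e-13). ADM read 5.40, 5.32 and 5.11 with MMSET II, against 8.20, 8.18 and 8.24 with Y1118A, a difference of -2.93 (SE 0.143). The lysosomal membrane protein LAMP5 was at least 4.99-fold lower. All 3 arrays of the groups lay apart in each, which the choice of these genes required. GCHFR, which regulates tetrahydrobiopterin synthesis, differed by -2.03, and KREMEN2, a receptor of Wnt inhibitors, was at least 3.04-fold lower. RRAGD, a Rag GTPase of amino acid sensing, differed by -1.58, LY96, the partner of the receptor TLR4, by -1.42, butyrylcholinesterase BCHE by -1.39, with -1.44 at its other probe, and the secreted synaptic protein CBLN2 by -1.38. GALNT13 and the transcription repressor DACH1 were at least 2.28-fold and 2.56-fold lower. CRACR2B of calcium entry differed by -1.36, the interferon-inducible SAMD9L by -1.33, the calcineurin-controlled factor NFATC1 by -1.29 and YPEL3, a growth-suppressing gene, by -1.26. The 15 largest falls had limma adjusted p-values of 1.26e-13 to 0.000116. KREMEN2 and GALNT13 were detected on 3 Y1118A arrays and 0 MMSET II arrays, so they passed the filter only through Y1118A.

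**Figure D2:**
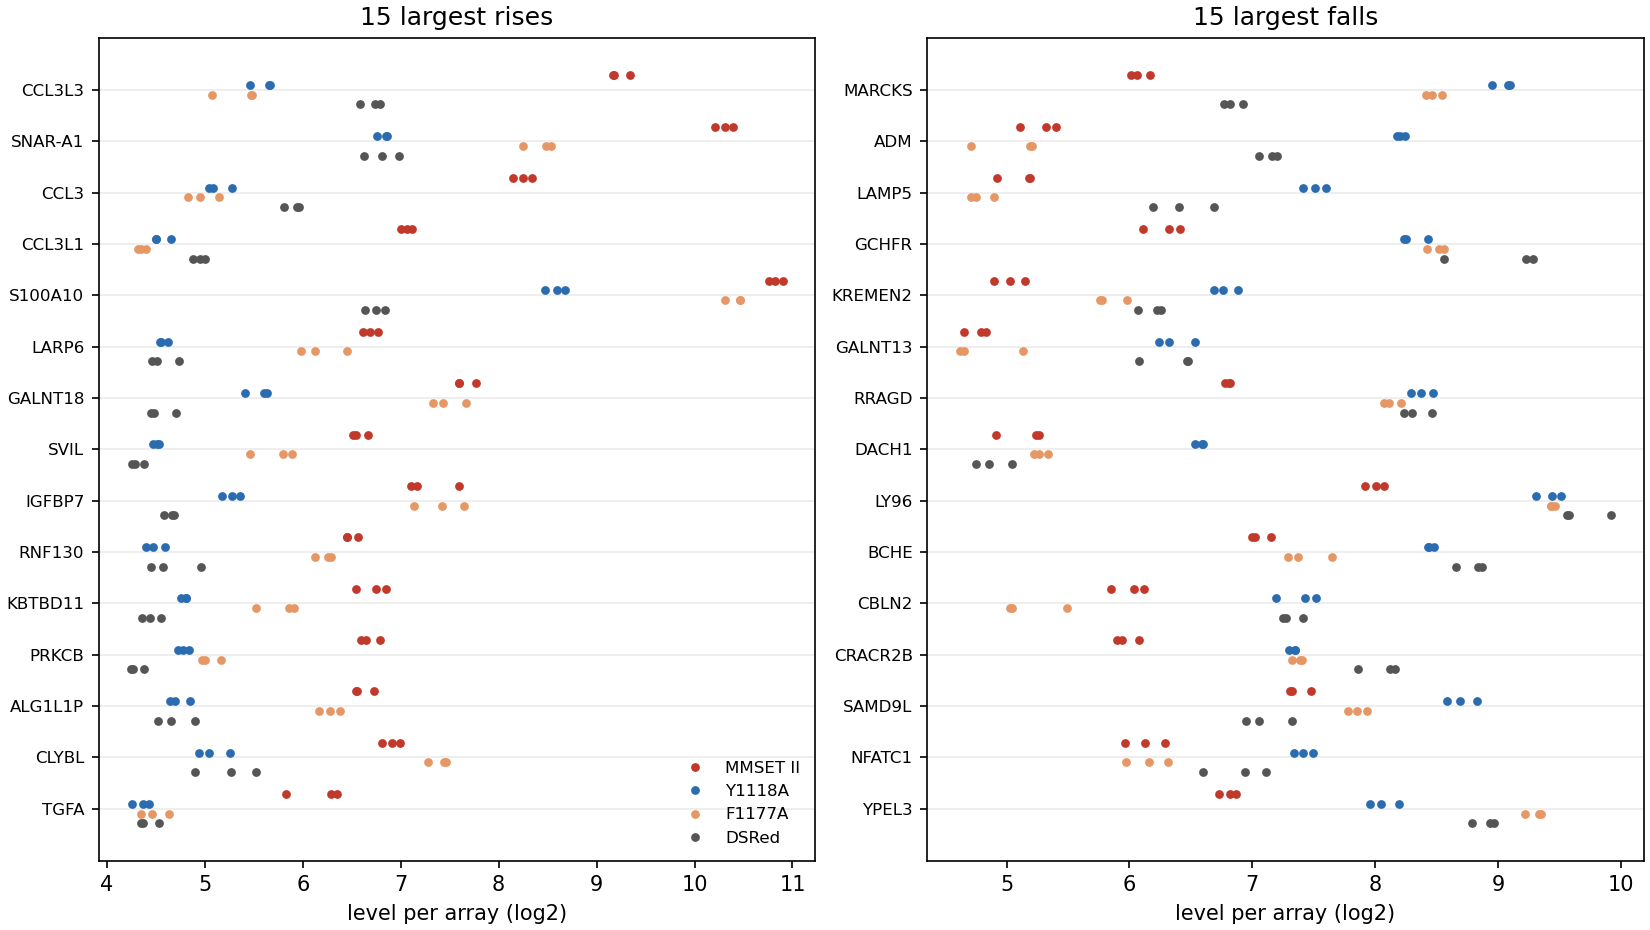
Level per array (x, log2) of the 15 largest rises (left) and the 15 largest falls (right), 3 points per group, with MMSET II and Y1118A above F1177A and DSRed in each row. The MMSET II and Y1118A points of a gene do not overlap, which the choice of these genes required, and MMSET II lies above all DSRed arrays in 15 of 15 rises.

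The same genes can be set beside the empty vector cells. In the 15 largest rises, the MMSET II arrays all lay above the DSRed arrays in 15 genes, and the Y1118A arrays did so in 6 genes. In the 15 largest falls, the MMSET II arrays all lay below the DSRed arrays in 13 genes, while the Y1118A arrays lay above them in 7 genes and below them in 5. Over all 12022 probes, 22.8% lay above and 22% below all DSRed arrays with MMSET II, and 23.7% and 21.3% with Y1118A. The 30 genes were picked for their MMSET II and Y1118A levels and the comparisons share the DSRed arrays, so the counts are descriptions. MARCKS gives an example, with a difference of -0.75 for MMSET II against DSRed and 2.21 for Y1118A against DSRed. S100A10 was 4.08 above DSRed with MMSET II and 1.84 above it with Y1118A, so the level with Y1118A lay between the other two. CDH2, N-cadherin, was 2.85 above DSRed with MMSET II and 1.10 above it with Y1118A.

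Cells make cholesterol from acetyl-CoA through the mevalonate pathway under the control of sterol-sensing factors. Of 35 member genes of the sterol and fatty acid synthesis list 18 were called higher and 1 lower, against 9.76% higher and 10.2% lower over the 8288 member genes, with a median difference of 0.483 against -0.006. HMGCS1, which makes the mevalonate precursor, read 10.55, 10.39 and 10.50 with MMSET II, against 9.10, 8.96 and 9.08 with Y1118A (log2 level), a difference of 1.43 (SE 0.161). DHCR7, the last reductase of cholesterol synthesis, differed by 1.25 (SE 0.155), and ACSS2, which makes acetyl-CoA from acetate, by 1.25 (SE 0.178). The groups did not overlap in these 3, as in 49% of all member probes. Other members called higher were squalene epoxidase SQLE (0.769), the lanosterol synthase LSS (0.607), fatty acid synthase FASN (0.483) and INSIG1 (0.508), while the efflux transporter ABCA1 was the one called lower (-0.589). Against DSRed, the list median was 0.05 with MMSET II and -0.51 with Y1118A. Under median scaling 6 of the 35 were called higher, at a list median of 0.546. The 9 bases TCACNCCAC, the core of the sterol response element, were sought on both strands in the RefSeq windows (GRCh38.p14) of the 31 members that have one, and 0 held it, against 379 of 27305 genes (1.39%). At so low a share, 0 of 31 cannot set the list apart from other genes. Other forms of the element, and sequence outside the windows, were not searched.

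The list of MYC, its relatives and ribosome biogenesis genes, most of which build ribosomal subunits in the nucleolus, was called higher in 21 of 45 members and lower in 2, with a median of 0.335. NOP16 differed by 0.82 (SE 0.208) and PES1, a nucleolar processing factor, was at least 1.68-fold higher. The helicase DDX21 differed by 0.616 and the ribosome assembly factor NOL6 by 0.648. Not all called members build ribosomes: MYCN, a relative of MYC, differed by 0.599 and the transferrin receptor TFRC by 0.646, and both falls were antagonists of MYC, MXD3 (-1.12, SE 0.212) and MXD4 (-0.441). MYC itself differed by 0.109 (adjusted p = 0.53). Under median scaling 2 of the 45 were called higher and 1 lower, at a median of 0.351, and leaving out 1 array gave 13 to 15 higher. Of 43 cytosolic ribosomal proteins 2 were higher and 1 lower with the main scaling. The letters CACGTG (the E-box bound by MYC, its own reverse complement) stood in the RefSeq windows of 15 of 38 members with one (39.5%), against 2396 of 27305 genes (8.77%). Among the members called higher 7 of 17 held it (41.2%) and among the others 8 of 21 (38.1%). PES1 (chr22:30591861-30592160, minus strand) and DDX21 (chr10:68956397-68956696, plus strand), both called higher, are shown with the match in capitals. Both motifs were chosen after the lists that moved were known.

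PES1: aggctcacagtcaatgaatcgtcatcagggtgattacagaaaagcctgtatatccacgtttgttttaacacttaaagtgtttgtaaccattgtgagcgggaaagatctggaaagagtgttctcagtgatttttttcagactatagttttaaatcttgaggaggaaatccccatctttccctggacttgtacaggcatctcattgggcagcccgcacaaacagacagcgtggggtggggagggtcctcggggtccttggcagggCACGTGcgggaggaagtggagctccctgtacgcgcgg

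DDX21: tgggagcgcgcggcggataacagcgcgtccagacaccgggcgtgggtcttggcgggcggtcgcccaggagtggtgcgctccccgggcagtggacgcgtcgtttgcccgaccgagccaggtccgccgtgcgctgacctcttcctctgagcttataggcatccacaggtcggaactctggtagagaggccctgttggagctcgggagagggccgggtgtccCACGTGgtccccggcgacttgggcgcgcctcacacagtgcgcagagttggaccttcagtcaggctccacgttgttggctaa

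Of 38 glycolysis and hypoxia genes 11 were higher and 3 lower, against 3 and 1 under median scaling (shares of 28.9% and 7.89% in the main setting, beside 9.76% and 10.2% over all genes). Hexokinase HK1 read 8.16, 8.14 and 8.17 with MMSET II, against 6.95, 6.91 and 6.83 with Y1118A (log2 level), and carbonic anhydrase CA2 differed by 1.33. The glucose transporter SLC2A1 (0.572) and aldolase ALDOC (1.137) were higher as well. Of the genes known to be induced by hypoxia, BNIP3 (0.558), P4HA1 (0.584) and HK2 (0.935) were also higher, while ADM and NDRG1 (-0.565) were lower.

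**Figure D3:**
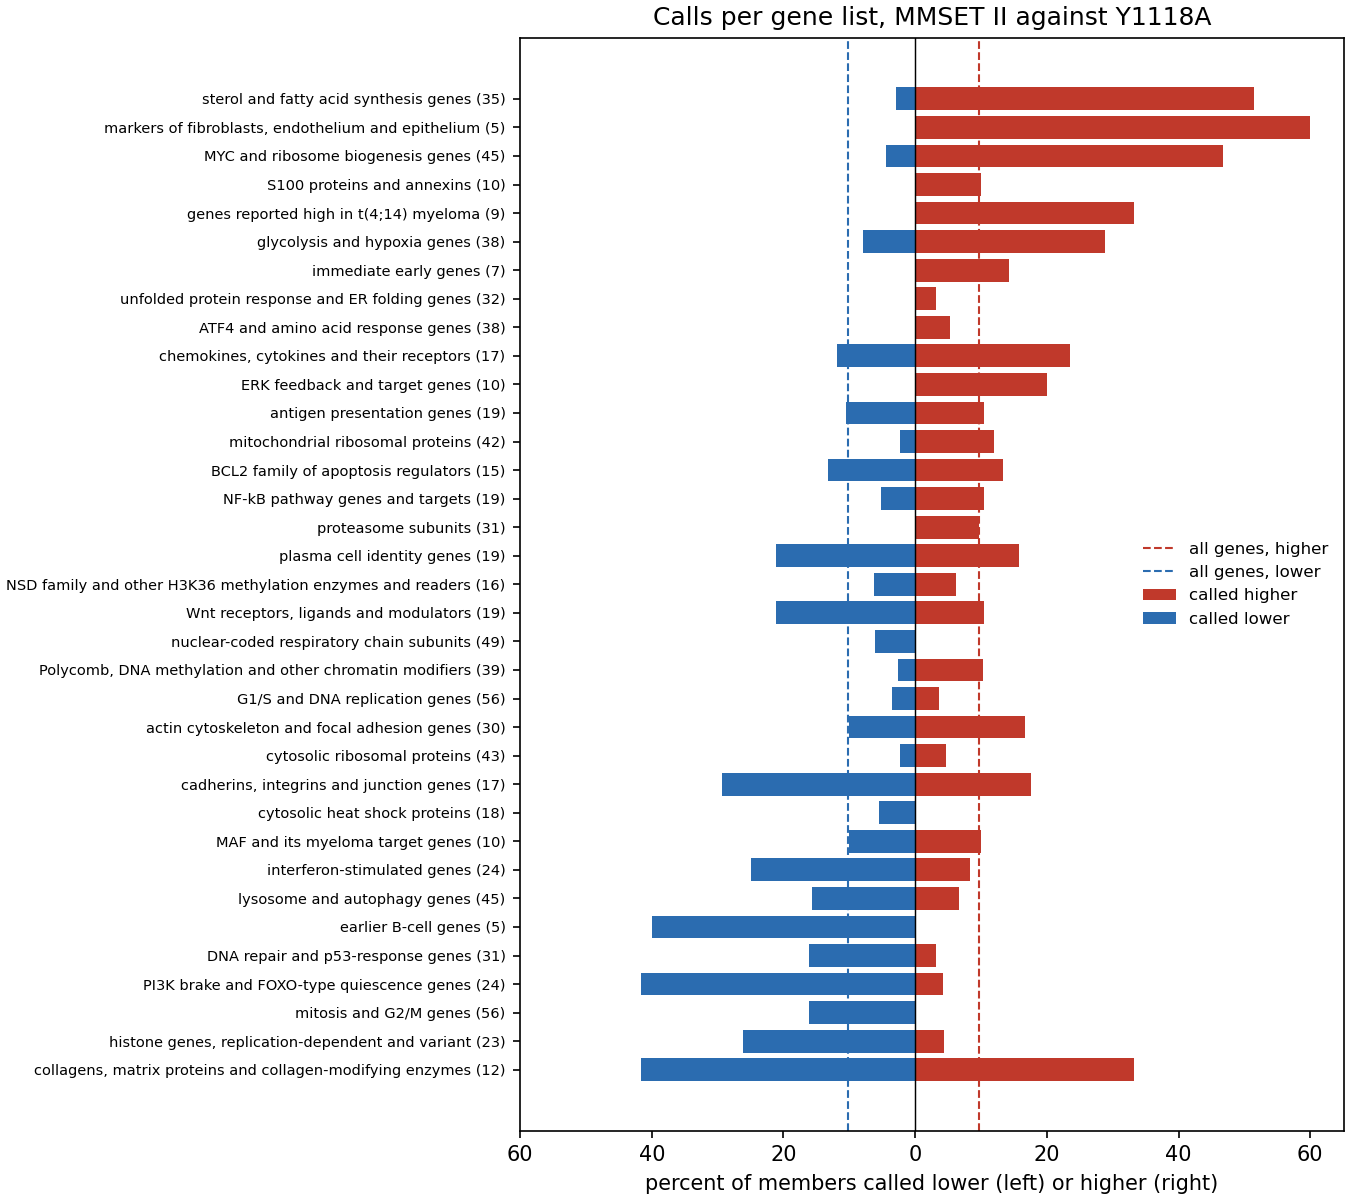
Share of the members of each gene list with at least 5 members that was called lower (left, blue) or higher (right, red) in MMSET II against Y1118A, with the member count in brackets and the lists sorted by median difference. Dashed lines give the shares over all 8288 genes, 9.76% higher and 10.2% lower.

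The PI3K brake and FOXO-type quiescence list, genes that slow growth when growth factor signalling is low, was called lower in 10 of 24 members and higher in 1 (TSC22D3), with a median of -0.207. Under median scaling 2 were called lower, at a median of -0.208, and leaving out 1 array gave 6 to 7. CCNG2, a cyclin of quiescent cells, differed by -0.92 (SE 0.187) and PIK3IP1, an inhibitor of PI3K, by -0.72 (SE 0.13). PIK3IP1 read 6.49, 6.61 and 6.61 with MMSET II, against 7.25, 7.33 and 7.28 with Y1118A (log2 level). The groups did not overlap, as in 49% of all member probes. Over all genes, 9.76% were higher and 10.2% lower. The autophagy kinase ULK1 differed by -0.89 (SE 0.114) in the lysosome list. There 3 of 45 members were higher (6.67%) and 7 lower (15.6%), with the protease CTSH at 1.53. Of 31 DNA repair and p53-response genes 1 was higher (3.23%) and 5 lower (16.1%), with TP53INP1 at -0.73 and SESN1 at -0.70.

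Mitosis genes were called lower in 9 of 56 members by limma and higher in 0 (16.1% lower, beside 10.2% over all genes), with a median of -0.23. Under median scaling none of the 56 was called, at a median of -0.214, and leaving out 1 array gave 5 to 7 lower. ASPM, which organises spindle poles, differed by -0.79 (SE 0.199), the kinesin KIF20A by -0.62 (SE 0.14) and the spindle protein NUSAP1 by -0.58 (SE 0.128), though its second probe gave -0.26 with no call. The replication list gave 2 of 56 higher and 2 lower, with a median of 0.009. Of 23 histone genes 1 was higher and 6 lower (26.1% lower, beside the same 10.2%), with a median of -0.239, and 1 was called lower under median scaling, at a median of -0.264. The largest were H2AC6 (-1.23) and H2BC5 (-0.92, with -0.88 at its other probe). Leaving out 1 array gave 3 to 4 lower. Histone genes have near-identical copies and probes may read several.

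**Figure D4:**
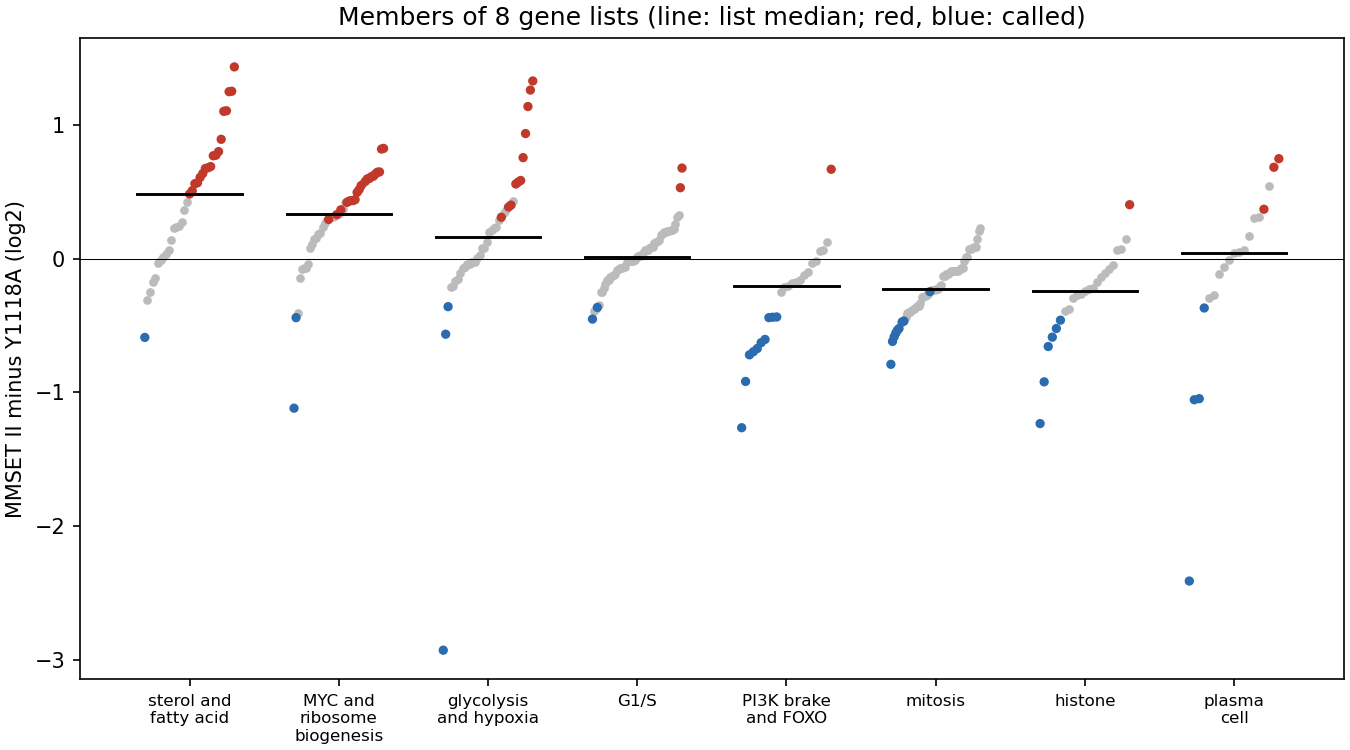
Differences of MMSET II minus Y1118A (y, log2) of the members of 8 gene lists (x), sorted within each list; red and blue points are called, and a line marks the list median. The sterol median lies at 0.483 and the ribosome biogenesis median at 0.335, and the FOXO, mitosis and histone medians lie between -0.207 and -0.239.

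Genes reported high in t(4;14) myeloma were called higher in 3 of 9 members and lower in 0, beside 9.76% higher and 10.2% lower over all genes, which is the background for the counts of the short lists that follow. The adhesion protein CDH2 read 8.54, 8.50 and 8.58 with MMSET II, against 6.69, 6.86 and 6.83 with Y1118A (log2 level), a difference of 1.75 (SE 0.159, limma adjusted p = 1.91e-07). The junction protein JAM3 differed by 1.32 and the protease inhibitor SERPINE2 by 0.71. FGFR3, the other gene of the translocation, differed by -0.136 (adjusted p = 0.19). Of 10 ERK feedback and target genes, 2 were called higher, the phosphatase DUSP5 (1.45) and the transcription factor ETV4, at least 2.69-fold.

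Of 17 cadherins, integrins and junction genes 3 were higher and 5 lower, with EPCAM at 1.66 and the integrin ITGB5 at -0.42. The other ITGB5 probes gave -0.21 and -0.39 with no call. Of 12 matrix genes 4 were higher and 5 lower: the lysyl hydroxylase PLOD2 differed by 1.62, the protease MMP9 was at least 1.61-fold higher, and the laminin chain LAMA5 differed by -1.09. In the actin list 5 of 30 were higher, among them RAI14 (1.48), and 3 lower. Of 24 interferon-stimulated genes 2 were higher, with MX1 at 0.98, and 6 lower, with IFI44 at least 1.63-fold.

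Plasma cell identity genes were called higher in 3 of 19 members and lower in 4. SDC1 was at least 1.75-fold lower and CAV1, a caveolar protein, differed by -1.05, while the receptor TNFRSF17 was higher by 0.747 and the immunoglobulin joining chain JCHAIN by 0.683. Of 16 enzymes and readers of the H3K36 mark 1 was higher, the methyltransferase SETMAR (0.38), and 1 lower, the reader PSIP1 (-0.46), and neither was called under median scaling. Of 32 unfolded protein response genes 1 was higher and 0 lower by limma, and of 38 ATF4 genes 2 and 0.

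The scaling bears on the smaller changes. Of the other 80 named genes outside the 30 largest, 26 kept their call under median scaling; ASPM, KIF20A, NUSAP1, CCNG2, PIK3IP1, TP53INP1, SESN1, SERPINE2, MX1, ITGB5 and H2BC5 were among those that lost it. In the 54 named genes that did, the difference under median scaling was 0.82 to 1.15 times the main one (median 1), so the calls were lost at about the same size of difference. Median scaling called 0 falls in the adhesion list, against 5 with quantile normalisation, 2 against 5 in the matrix list, 1 against 7 in the lysosome list, 0 against 5 in the DNA repair list and 2 against 6 in the interferon list. It called 1 rise against 5 in the actin list and 0 against 3 in the plasma cell list. Of the 110 named called genes, 25 lost their call in at least 1 of the 6 fits that left out an array, and 5 of them (ACTA2, BACH2, CREB3L2, MRPS34 and RPL29) in all 6. NOP16 lost it without MMSET II replicate 3 (limma adjusted p = 0.0519), and ITGB5, PSIP1 and SETMAR in 5 of 6 fits.

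F1177A against DSRed shares no array with MMSET II against Y1118A and sets a construct labelled active against a control without one. In it 1346 probes were called higher (11.2%) and 1162 lower (9.67%). Of the 1109 probes higher with MMSET II, 316 were called higher and 125 lower there, or 23.5% of its higher and 10.8% of its lower calls. Of the 1141 lower ones 145 were called lower and 172 higher, or 12.5% of its lower and 12.8% of its higher calls. Among the 138 at least 2-fold rises, 108 were called higher and 6 lower with F1177A, and the median difference of these probes there was 1.047. Among the 56 at least 2-fold falls, 25 were called lower and 15 higher. In F1177A against DSRed the sterol median was 0.069 (4 higher, 1 lower). The MYC and ribosome biogenesis median was -0.079 (3 higher, 2 lower) and the FOXO median 0.215 (7 higher, 2 lower). Mitosis had 0.253 (9 higher, 0 lower), histones -0.421 (1 higher, 12 lower) and all member genes -0.02. The MYC, FOXO and mitosis medians thus had the opposite sign to MMSET II against Y1118A, and the sterol and histone medians the same sign. The MYC and sterol medians lay close to that of all genes, and the controls of the 2 comparisons differ. Against DSRed, the mitosis median was 0.15 with MMSET II and 0.34 with Y1118A, above 0 as with F1177A. MYC and ribosome biogenesis had 0.19 and -0.12, FOXO -0.35 and -0.09, histones -0.38 and -0.07, and all member genes 0.02 and 0.03. Across the 12022 probes the differences of the 2 comparisons had a Pearson's r of 0.194 and a Spearman's rho of 0.00771, a description over probes that share arrays within each comparison.

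S100A10, GALNT18, LARP6, SVIL and SNAR-A1 rose in both comparisons. In F1177A against DSRed, S100A10 differed by 3.67 and SNAR-A1 by 1.62, while GALNT18, LARP6 and SVIL were not above background with DSRed. GALNT18 was at least 4.3-fold higher with F1177A, LARP6 at least 1.76-fold and SVIL at least 1.27-fold. ADM, LAMP5, GALNT13, BCHE and GCHFR fell in both. Of these, ADM (at least 3.58-fold lower), LAMP5 (at least 2.19-fold) and GALNT13 (at least 2.06-fold) were not above background with F1177A, BCHE differed by -1.35 and GCHFR by -0.53. The 5 largest opposite calls included MARCKS (1.64 with F1177A), CCL3L3 (-1.36) and CCL3, which was not above background with F1177A and was at least 1.52-fold lower. CCL3L1 and DACH1 passed the same test, but neither F1177A nor DSRed lay above background for them, so no size or direction is given. Of the other largest falls, SAMD9L (0.74) and YPEL3 (0.40) were called higher with F1177A, and CRACR2B (-0.68), NFATC1 (-0.74) and CBLN2 (at least 3.86-fold) lower. Among smaller falls, ULK1 (0.73), PIK3IP1 (0.57), KIF20A (0.50), NUSAP1 (0.46) and LAMA5 (0.33) were called higher there. CAV1 (-0.53), H2AC6 (-0.75) and H2BC5 (-1.07) were called lower. MARCKS read 8.54, 8.46 and 8.41 with F1177A, against 6.82, 6.77 and 6.92 with DSRed (log2 level). The difference between the 2 comparisons was itself tested by limma and called for 2389 probes (19.9%), with adjusted p = 2.11e-14 for MARCKS and 4.51e-12 for CCL3L3. It was called for 68 of the 138 rises and 37 of the 56 falls. MARCKS and CCL3L3 were picked for opposite calls, so this test had to pass in them. The rises and falls were picked for a large main difference, which is part of this contrast, so their counts are descriptions.

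**Figure D5:**
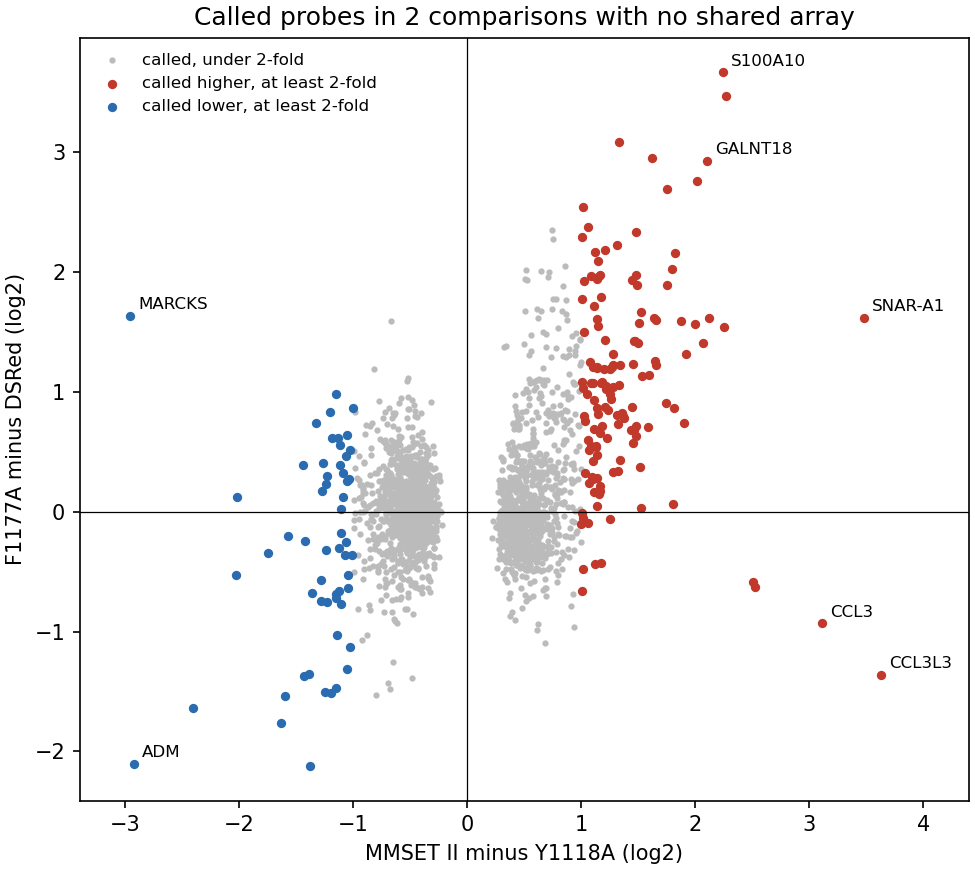
Differences of MMSET II minus Y1118A (x, log2) and F1177A minus DSRed (y, log2) for the 2250 called probes, with at least 2-fold rises in red and falls in blue. Of the 138 rises 108 were called higher with F1177A, while CCL3, CCL3L3 and MARCKS lie in opposite quadrants.

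With doxycycline against without it, 2589 probes were called higher (21.5%) and 2287 lower (19%). Of the 1109 probes higher with MMSET II, 282 were called higher and 237 lower with doxycycline, and of the 1141 lower ones 260 were higher and 275 lower. These are 25.4% and 21.4% of the higher probes and 22.8% and 24.1% of the lower ones. Pearson's r over the probes was -0.00877. Of the 138 at least 2-fold rises, 28 were called higher and 50 lower with doxycycline, and of the 56 falls 14 higher and 13 lower. CCL3L3 (2.16), CCL3 (2.02), CCL3L1 (2.16), HMGCS1 (1.87), DHCR7 (0.95) and ACSS2 (0.50) were called higher with doxycycline, as with MMSET II. S100A10 (-1.11), GALNT18 (-0.90), ALG1L1P (-0.67) and CDH2 (-0.53) were called lower. Of the falls, ADM was called higher (2.10) and GCHFR lower (-1.08). The reason for these directions was not tested.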

How the data were processed

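Biotin-labelled RNA was hybridised to bead arrays, per the labels' protocols. The deposited table gives a linear intensity per probe and array (not normalized, per the file headers) with its detection p-value. Because 31.1% of intensities lie below 0, a background had already been subtracted, by an unstated step. The only tool in the submitters' processing notes is GenomeStudio, version 1.5.4. In the authors' series matrix the intensity values share 1 distribution across arrays, and it served only as an alternative.

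The background was corrected with the normexp step of neqc in limma 3.58.1 (R 4.3.3; negative controls inferred from the detection p-values, offset 16), followed by quantile normalisation over 18 arrays and log2. A single limma model held all 18 arrays with 6 group means, leaving 12 residual degrees of freedom, and eBayes used the intensity trend. Two-sided p-values were adjusted by Benjamini-Hochberg over the 12022 members, and a probe was called at an adjusted p under 0.05. Errors of differences are the model's standard errors. The offset makes log2 differences understate the change of dim probes. A gene is represented by its brightest member probe. Where a group did not detect a probe on any array, or its mean lay below the mean of the lowest detected signals, the fold is a lower bound: the brighter group's mean over the dim group's, with each dim array raised to its own lowest detected signal where it lay under it. Of 48803 probes, the annotation names 1 gene for 27578, several for 13 and none for 21212. Promoter windows came from RefSeq (GRCh38.p14), aligned with Biopython 1.88. The fit was tested on simulated arrays.

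Named genes were NSD2, the 15 largest rises and falls among called genes whose arrays did not overlap and with no placeholder symbol, up to 3 called members with the largest difference per list, the 5 largest in each direction called the same way in F1177A against DSRed, and the 5 largest called the opposite way; further list members are named as examples after their values were seen. The member rule, the gene lists and the named gene rule were chosen with earlier results of these data known, so none is independent support. List counts and medians carry no test. The replicate numbers were not used as a block.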

Additional observations from a re-analysis of the deposited data

How the results depend on the processing

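Across 14 alternative settings and 6 fits that each left out 1 array, none of the 110 called genes that the naming rule chose changed sign. Much of this was fixed in advance. Where the arrays of the groups do not overlap, leaving out 1 array cannot turn the sign. Settings that change only the filter, the intensity trend or the replicate block keep the same difference. Median scaling called 548 probes (367 higher, 181 lower), 638 for the difference of differences and 207 the same way in both comparisons, and 46 list members, against 196. Models that estimate the spread from the 6 arrays alone, or weight arrays, called more: 4530 probes (2232 higher, 2298 lower, 389 list members) with quantile normalisation and the fit on those arrays, 4537 (2240, 2297, 391) with the fit alone, and 5011 (2487, 2524, 421) with array weights, whose estimation stopped before it converged, with 4840 for F1177A against DSRed, 5404 for the difference of differences and 1024 in both comparisons. With an offset of 50 the calls of at least 2-fold fell to 68, and with detection on all 6 arrays to 104, since that filter removes probes seen in 1 group. Leaving out 1 array gave 1486 to 1702 calls, and 738 to 860 lower calls, with the fewest of both without Y1118A replicate 1. For the other shifts the cause was not tested.

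Of 110 named called genes, 56 kept the call under median scaling and 85 without each array in turn. The 30 largest rises and falls kept it under every alternative that tested them. List medians stayed within the spread between arrays in 657 of 720 cases. Part of these could not move: a fit without intensity trend or with a replicate block keeps the same differences. The sterol list had 6 to 22 members higher, MYC and ribosome biogenesis 2 to 33, the FOXO list 2 to 14 lower, mitosis 0 to 31 and histones 1 to 11. Same-numbered arrays deviated together with r of -0.171, 0.369 and 0.138. These are mixed values around means of 3 arrays, so they cannot decide whether same-numbered arrays shared a culture or day. With a replicate block 2081 probes were called, and 3 named calls were lost (ACTA2, BACH2 and PSME3). Dim probes limit what can be seen: 35912 probes were detected on none of the 6 arrays.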
